A study of Homo sapiens with 24 samples.

Results

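The genes described here encode the machinery that drives and limits the anaphase-promoting complex, or cyclosome (APC/C), together with separase. The set held 10 genes: CDC20, FZR1, UBE2C, UBE2S, FBXO5, PTTG1, ESPL1, CDC27, CDC16 and CDC23. They were chosen by name, with earlier results of these data known. They are the rows of the count tables whose Ensembl identifier maps to these symbols. Each mapped to 1 of the 58721 identifiers in every library. Expression was measured by RNA-seq of polyA-captured RNA in A549 cells, a cell line from a human lung adenocarcinoma, and the question was how the knockdown of the transcription factors MYBL2 and FOXM1, or the compound FDI-6, changes these transcripts.

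The APC/C is a ubiquitin ligase with many subunits that marks mitotic proteins for destruction by the proteasome. CDC20 activates it at the metaphase to anaphase transition, and FZR1 (also called CDH1) takes over at mitotic exit and in G1. UBE2C starts and UBE2S extends the ubiquitin chains. FBXO5, or EMI1, inhibits the complex in S and G2 phase. Once the APC/C has marked securin, encoded by PTTG1, separase, encoded by ESPL1, is released and cleaves the cohesin that holds sister chromatids together. CDC27, CDC16 and CDC23 are core subunits built of tetratricopeptide repeats. CDC27 and CDC23 help to dock the activators. MYBL2 and FOXM1 are transcription factors known for the activation of G2/M genes, many of which are read by complexes bound to cell cycle genes homology region (CHR) elements.

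There were 24 libraries in 7 groups. Cells transfected with small interfering RNA (siRNA) against MYBL2 (siMYBL2), against FOXM1 (siFOXM1) or with a scrambled control siRNA (siControl) gave 4 libraries each. A separate experiment with siRNAs against both factors (siBoth) and its own scrambled control (siControl_siBoth) gave 3 libraries each. The labels give a siRNA dose of 25 nM and do not say whether that was the dose of each siRNA or of the sum in siBoth. In a further experiment, cells treated with 20 µM FDI-6, a small molecule described as an inhibitor of the forkhead DNA-binding domain, for 24 h (FDI6) and their controls (control_FDI6) gave 3 libraries each. The sources name those controls once as DMSO-treated and once as untreated. All groups came from A549, so each result holds for 1 cell line, with siRNA knockdown in a mixed cell population. The siMYBL2 and siFOXM1 groups were compared with the same 4 siControl libraries, so their results are not independent of each other. The study's methods call the replicates biological, and the labels do not say whether they were separate cultures, so p-values measure the spread between these samples.

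Between 16487394 and 30140550 read pairs were counted on genes per library. The FDI6 libraries (16487394 to 17741253) were shallower than their controls (18856286 to 21039750), and between 7.68% and 10.9% of pairs were not aligned in the siBoth experiment, against 1.73% to 3.03% elsewhere. As a check of the labels, MYBL2 fell by 4.58 ± 0.205 (SE) on the log2 scale in siMYBL2 (edgeR adjusted p = 1.49e-05) and FOXM1 fell by 3.38 ± 0.109 in siFOXM1 (edgeR adjusted p = 2.34e-06). In siBoth MYBL2 fell by 4.35 and FOXM1 fell by 3.37. FOXM1 also fell by 0.73 ± 0.138 in siMYBL2 (edgeR adjusted p = 0.00754). In FDI6, MYBL2 fell by 0.51 ± 0.0902 (edgeR adjusted p = 0.00105) and FOXM1 fell by 0.37 ± 0.0806 (edgeR adjusted p = 0.00400). The keratin KRT8 lay between 1599 and 5656 CPM in every library and EPCAM between 1.67 and 37.6. The epithelial marker gene named CDH1, which is not FZR1, lay between 9.52 and 90.4. Of 4 markers of other cells, the leukocyte marker PTPRC reached 0.232, the alveolar type II marker SFTPC 0.321 and the endothelial marker PECAM1 2.81 CPM at most, while the collagen gene COL1A1, high in fibroblasts, was counted in every library, at 4.91 to 58.8. COL1A1 was at 4.91 to 8.74 CPM in FDI6, against 17.4 to 18.9 in control_FDI6, and its part in the results was not tested. CPM are counts per 1000000 counted read pairs, with library sizes scaled by TMM (trimmed mean of M-values) over all 24 libraries.

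Of the 10 genes, all passed the filter on low counts in each comparison. A gene was taken as changed when its adjusted p in edgeR's quasi-likelihood test was under 0.05, and as called when its fold change was also over 1.5. In siMYBL2, 5 of the 10 were lower (UBE2C, FBXO5, ESPL1, PTTG1 and UBE2S) and none was higher, where 9.53% of all genes tested were lower and 8.53% higher. Of these, 3 were called (UBE2C, FBXO5 and ESPL1), against 3.52% of all genes. In siFOXM1, PTTG1 alone was changed, where 1.09% of all genes were lower and 0.277% higher, and 0 were called, against 0.667% of all genes in either direction. At an unadjusted p under 0.05, 3 of the 10 differed in siFOXM1 and 0 of them by more than 1.5-fold, and DESeq2 also changed 1 and called 0. In siBoth, 5 were lower (UBE2C, ESPL1, PTTG1, FBXO5 and CDC20), against 7.77%, none was higher, against 4.55%, and 4 were called, against 3.64%. In FDI6, 5 were lower (UBE2S, PTTG1, UBE2C, FZR1 and ESPL1), against 17.9%, and CDC27 was higher, against 21.0%. None of them was called in FDI6, where 13.8% of genes were called in either direction. DESeq2 also called 0 in FDI6, and 0 of the 6 genes with an unadjusted p under 0.05 differed by more than 1.5-fold.

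**Figure D1:**
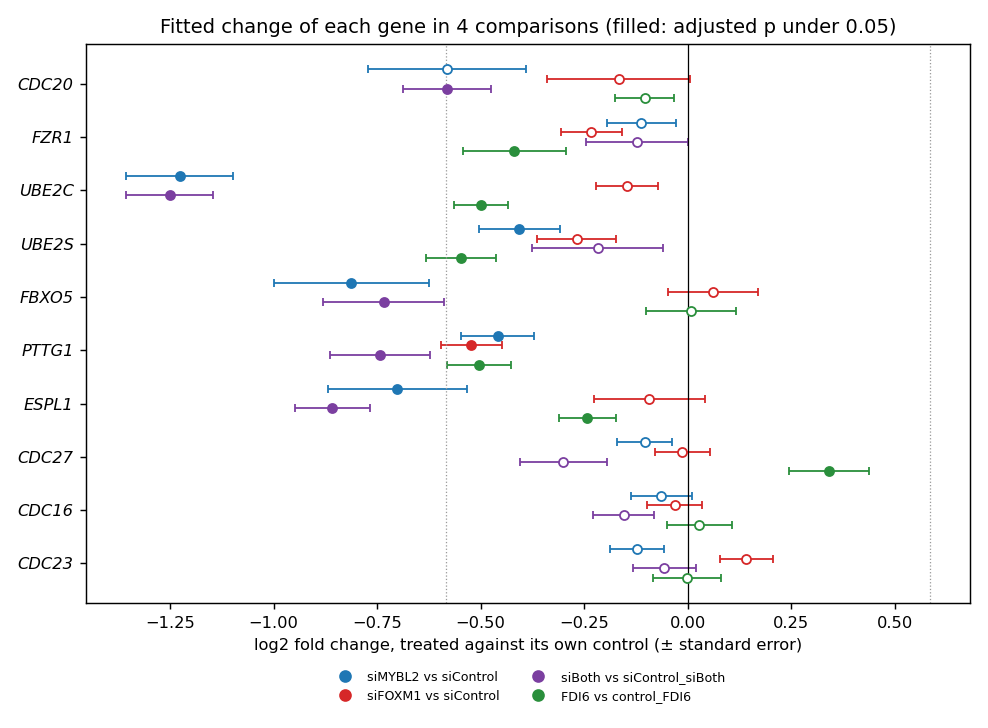
Fitted log2 fold change of the 10 genes (rows) in 4 comparisons (colours) against each treatment's own control, with bars of 1 standard error. Filled points have an adjusted p under 0.05 in edgeR's quasi-likelihood test and dotted lines mark a 1.5-fold change. UBE2C lay near -1.25 in siMYBL2 and siBoth, PTTG1 was filled in all 4 comparisons, and the 3 core subunits lay between -0.30 and 0.34.

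Libraries with the same replicate number varied together in the knockdowns, so a fit with the replicate number as a block was also made. With the block, 8 of the 10 genes were lower in siMYBL2 (23.1% of all genes tested, with 23.6% higher), 5 were lower and 1 higher in siFOXM1 (14.0% lower and 12.3% higher), and 7 were lower in siBoth (18.5%, with 16.3% higher). The share of all genes that changed rose as well, so the added genes are given below with both p-values. The 10 genes together had a median log2 fold change of -0.43 in siMYBL2, -0.12 in siFOXM1, -0.44 in siBoth and -0.17 in FDI6, where the median over all genes tested was 0.01, 0.00, 0.02 and -0.01.

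In siMYBL2, 5 of the 10 genes had no overlap between treated and control libraries, all lower, against 12.3% of all genes, and all 10 were lower in every same-numbered pair, against 28.1%. In siFOXM1, 2 did not overlap, both lower (4.81%), and 6 were lower in every pair (19.6%). In siBoth, 7 did not overlap, all lower (18.8%), and 8 were lower in every pair (30.5%). In FDI6, 5 did not overlap on the lower side (24.8%) and 1 on the higher side (26.7%). Several of these transcripts peak in G2 and mitosis, and in bulk RNA fewer cells in those phases and less RNA per cell cannot be told apart. The summed level of the 52 genes of a published G2/M list ranged from 5350 to 7068 CPM in siMYBL2 and from 7375 to 8346 in siFOXM1, against 8095 to 9159 in siControl. It ranged from 4852 to 5056 in siBoth, against 7226 to 7813 in its control, and from 8234 to 9317 in FDI6, against 9646 to 9808. Without the block, 30 of these 52 genes were lower in siMYBL2, 6 in siFOXM1, 36 in siBoth and 22 in FDI6. In FDI6, 5 were higher. Over all genes tested 9.53%, 1.09%, 7.77% and 17.9% were lower. The median log2 fold changes of the 52 genes were -0.41, -0.13, -0.63 and -0.14, against -0.43, -0.12, -0.44 and -0.17 for the 10 genes. The sum over the 43 genes of the matching S-phase list ranged from 2236 to 3285 CPM in siMYBL2 and from 3050 to 3651 in siFOXM1, against 3172 to 3952 in siControl. It was 2247 to 2835 in siBoth, against 2834 to 3452, and 3877 to 4356 in FDI6, against 4510 to 4578, so that the siMYBL2, siFOXM1 and siBoth ranges overlapped those of their controls and the FDI6 range did not. The part of cell cycle phase in the results below was not tested.

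To show the sequence in front of the genes that fell, promoter windows were taken from RefSeq (build GRCh38.p14), from 250 bases before to 50 bases after an annotated start. All of the genes but UBE2C matched, 9 of 10, with 12 windows. The windows of 4 genes that fell in siMYBL2, siBoth or both are given 5′ to 3′ on the strand of the gene. That of CDC23, a core subunit that passed in neither without the block, is given as well. The windows of UBE2S, which fell in siMYBL2, and of the other genes are not printed. Capitals mark the letters of a CHR (TTTGAA), of a CCAAT box or of a MYB core (AACGG) on either strand. On the other strand a CHR reads TTCAAA, while a CCAAT box reads ATTGG and a MYB core reads CCGTT. CDC20 lies on the plus strand, and its window is chr1:43358731-43359030. FBXO5 lies on the minus strand, with the window chr6:152982992-152983291. PTTG1 is on the plus strand, at chr5:160421605-160421904. ESPL1 is on the plus strand, at chr12:53268049-53268348. CDC23 is on the minus strand, at chr5:138213274-138213573.
CDC20: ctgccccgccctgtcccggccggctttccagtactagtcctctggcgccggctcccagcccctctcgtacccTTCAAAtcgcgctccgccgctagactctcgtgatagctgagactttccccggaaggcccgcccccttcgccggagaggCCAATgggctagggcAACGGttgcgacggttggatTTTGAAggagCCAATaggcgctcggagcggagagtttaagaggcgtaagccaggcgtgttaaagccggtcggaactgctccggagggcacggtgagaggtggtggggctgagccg
FBXO5: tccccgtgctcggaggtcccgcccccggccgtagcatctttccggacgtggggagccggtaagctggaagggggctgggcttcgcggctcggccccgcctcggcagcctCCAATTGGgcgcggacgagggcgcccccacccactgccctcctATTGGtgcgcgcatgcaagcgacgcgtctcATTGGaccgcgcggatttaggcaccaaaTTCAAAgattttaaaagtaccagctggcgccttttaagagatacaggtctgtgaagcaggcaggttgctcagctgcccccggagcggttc
PTTG1: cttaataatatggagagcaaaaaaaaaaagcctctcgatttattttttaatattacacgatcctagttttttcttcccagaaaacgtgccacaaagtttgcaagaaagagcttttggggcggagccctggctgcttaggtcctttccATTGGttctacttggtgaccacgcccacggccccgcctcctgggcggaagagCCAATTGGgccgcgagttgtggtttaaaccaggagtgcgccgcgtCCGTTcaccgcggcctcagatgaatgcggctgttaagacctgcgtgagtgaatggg
ESPL1: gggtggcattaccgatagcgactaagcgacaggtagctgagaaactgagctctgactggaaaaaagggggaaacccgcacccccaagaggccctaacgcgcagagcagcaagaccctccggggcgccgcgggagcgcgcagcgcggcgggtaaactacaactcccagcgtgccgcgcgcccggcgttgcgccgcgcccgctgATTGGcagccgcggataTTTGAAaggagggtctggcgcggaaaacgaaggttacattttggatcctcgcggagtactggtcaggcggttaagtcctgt
CDC23: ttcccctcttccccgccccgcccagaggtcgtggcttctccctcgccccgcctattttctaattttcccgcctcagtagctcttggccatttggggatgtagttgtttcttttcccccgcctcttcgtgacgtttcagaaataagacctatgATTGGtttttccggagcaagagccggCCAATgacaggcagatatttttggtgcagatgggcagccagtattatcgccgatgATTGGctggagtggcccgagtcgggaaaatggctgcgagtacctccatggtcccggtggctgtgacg

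The CHR letters stood in the windows of 4 genes, CDC20, FZR1, FBXO5 and ESPL1, and in 15.2% of all 35116 promoter windows of the table. They were not in the windows of UBE2S and PTTG1, which fell in siMYBL2, while FZR1 passed in neither siMYBL2 nor siBoth without the block. The match began 31 bases before the start in ESPL1 and 40 bases before it in FBXO5. CDC20 had a match at 65 bases and another at 178 bases before the start, and FZR1 at 226 bases before it. In ESPL1 a CCAAT box stood in front of the CHR, at 48 bases before the start. In FBXO5 the nearest of 4 CCAAT boxes stood at 68 bases before the start, with the CHR letters between it and the start. FBXO5 has another window, at an upstream start, that held none of the letters. A CCAAT box was found in 8 of the 9 genes, with CDC27, CDC16 and CDC23 among them, against 34.6% of all windows. In PTTG1 and FBXO5, CCAAT matches on opposite strands shared bases (CCAATTGG). The MYB core was found in 5 genes (CDC20, UBE2S, PTTG1, CDC27 and CDC16), against 19.7%. The CHR variant TTCGAA (1.45% of all windows) and the forkhead core TAAACA (12.3%) were found in none of the 9. No match says only that the letters are not in these windows. A match is a description of the sequence and not a site, and the counts of matched genes cannot be set directly against a share of windows, since 3 of the genes had 2 windows each.

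**Figure D2:**
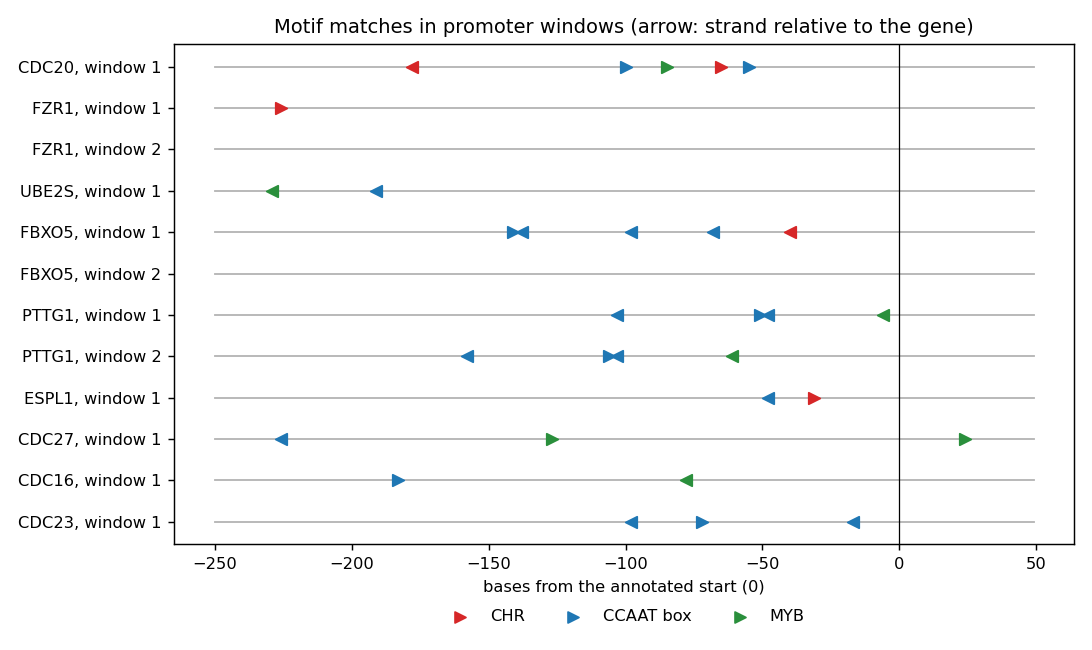
Position of motif letters in the 12 RefSeq promoter windows of 9 genes, in bases from the annotated start, with arrows for the strand relative to the gene. CHR letters (red) lay 31, 40 and 65 bases before the start in ESPL1, FBXO5 and CDC20, and 226 bases before it in FZR1.

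In siControl, UBE2S was the most abundant of the 10 transcripts per length, at 117 ± 12.5 CPM per kb of the canonical transcript (SD, n = 4). UBE2C (91.6 ± 6.20), PTTG1 (88.7 ± 5.58) and CDC20 (73.7 ± 15.4) followed, and UBE2C and PTTG1 differed by less than their spread. The core subunits came next, with CDC27 at 32.2 ± 1.90, CDC16 at 28.0 ± 1.99 and CDC23 at 23.2 ± 0.686 CPM per kb. FBXO5 (13.0 ± 1.74), ESPL1 (10.4 ± 1.54) and FZR1 (8.37 ± 0.567) were the lowest. The order depends on the length used: per kb of all annotated exons PTTG1 stood behind UBE2C and CDC20, at 32.1 against 55.4 and 60.4. In absolute terms the control groups of the 3 experiments were not alike. UBE2S ranged from 257.7 to 328.7 CPM in siControl, from 137.0 to 177.6 in siControl_siBoth and from 558.6 to 634.7 in control_FDI6, and each treatment is therefore compared with its own control.

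**Figure D3:**
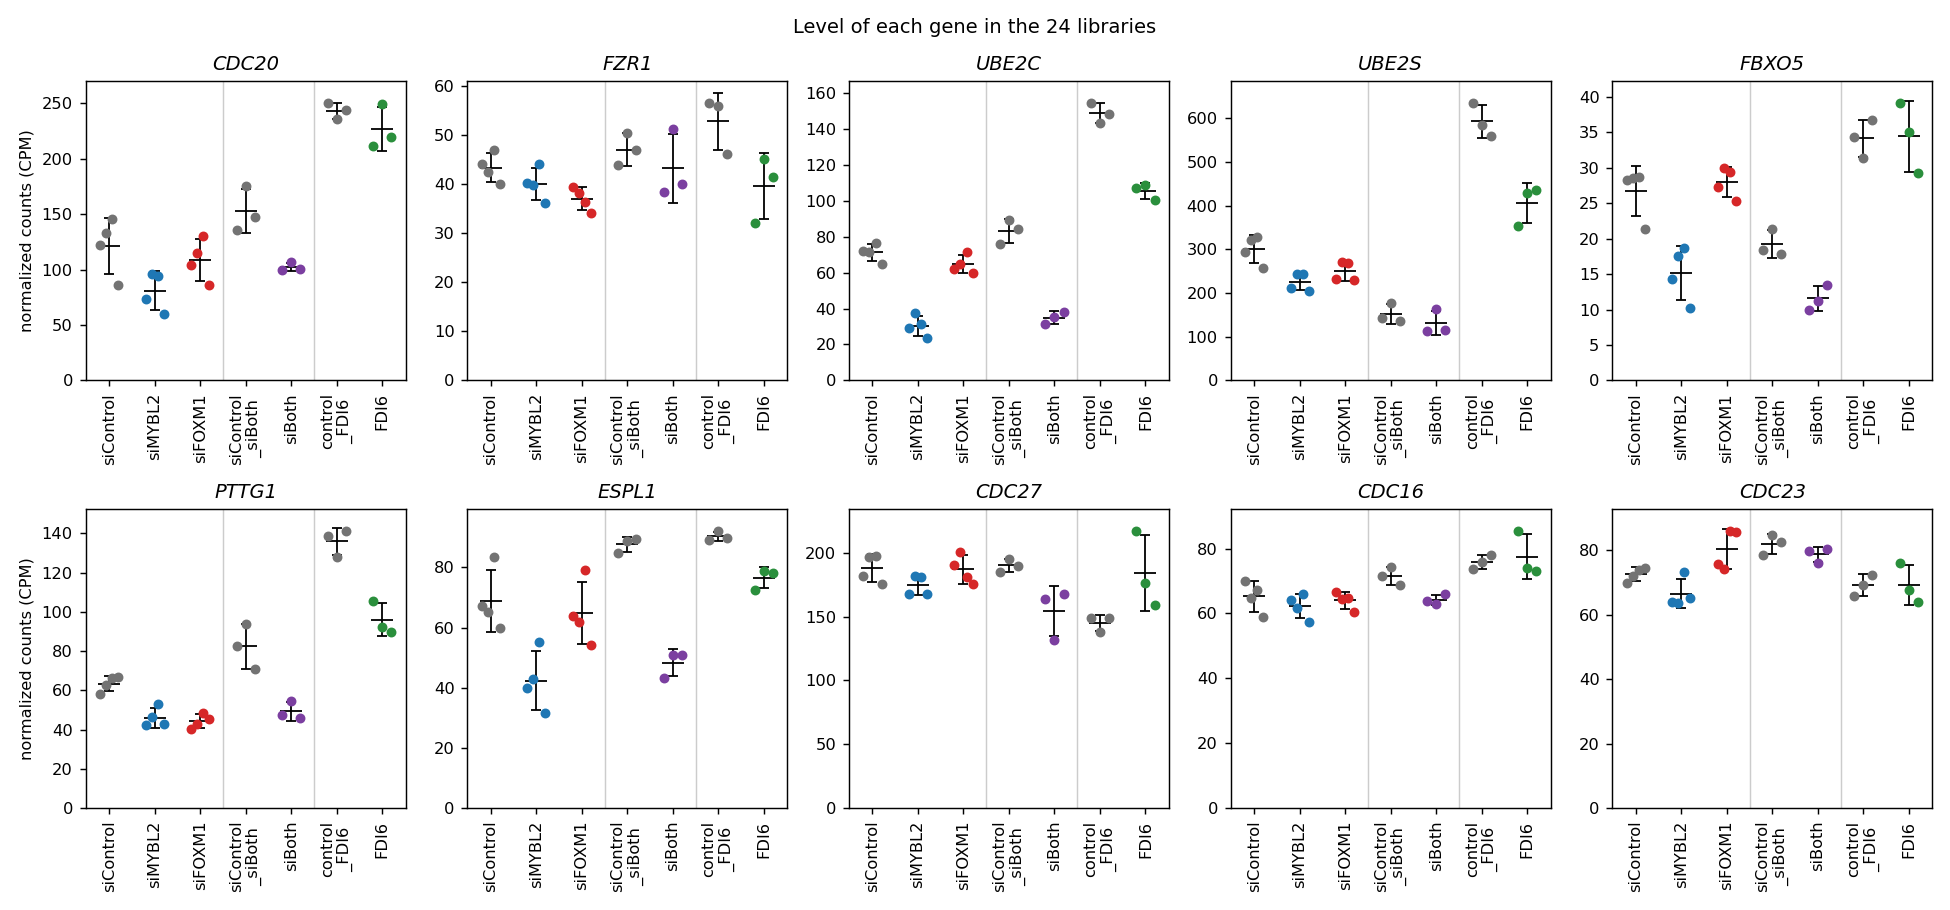
Level of each of the 10 genes in the 24 libraries, in CPM with TMM scaling, by group, with black bars for the mean ± SD and grey lines between the 3 experiments. UBE2C in siMYBL2 (23.6 to 37.4) and siBoth (31.2 to 38.3) lay below all of their controls (64.8 to 76.4 and 76.0 to 89.3), and UBE2S differed between the control groups.

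CDC20, the mitotic activator, stood at 121.8, 132.8, 145.3 and 86.4 CPM in siControl and at 73.7, 96.2, 94.5 and 60.1 in siMYBL2 (replicates 1 to 4). Replicate 4 was the lowest of its group in both, and the groups overlapped because siControl replicate 4 lay under 2 of the siMYBL2 libraries. Within same-numbered pairs CDC20 was lower in 4 of 4, by 0.58 ± 0.114 on the log2 scale on average (SD, n = 4 pairs). The fitted log2 fold change was -0.58 ± 0.190 (SE), with an edgeR adjusted p of 0.0640 without and 5.99e-07 with the block. Without siControl replicate 4 it was -0.73, with an edgeR adjusted p of 0.0157. It also passed in DESeq2 (adjusted p = 0.0200), in edgeR without the filter on low counts (0.0289) and with a correction for GC content and length (0.0486). In siBoth, CDC20 was 99.4, 106.6 and 100.7 CPM, against 136.1, 175.3 and 147.8 in siControl_siBoth, with no overlap. It fell by 0.58 ± 0.106 on the log2 scale (edgeR adjusted p = 0.0123).

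CDC20 changed less in the other treatments. In siFOXM1 it was 104.2, 114.9, 130.3 and 85.8 CPM, lower in 4 of 4 pairs but within the siControl range except in replicate 4. The log2 fold change was -0.17 ± 0.172 (edgeR adjusted p = 0.787, and 0.00170 with the block). In the FDI6 libraries it was 211.2, 249.3 and 219.6 CPM, against 250.2, 235.6 and 244.1, and the groups overlapped. The log2 fold change of -0.10 ± 0.0717 did not pass (edgeR adjusted p = 0.274). With the correction for GC content and length that was added after the data were seen, it was 0.16 (edgeR adjusted p = 0.0408). With the planned correction, which includes the block, it was also 0.16 and did not pass (edgeR adjusted p = 0.0810).

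FZR1, the activator of G1, showed another pattern. Its level was 39.9 to 46.9 CPM in siControl, 36.1 to 44.03 in siMYBL2 and 34.1 to 39.5 in siFOXM1. The siFOXM1 libraries lay below all siControl libraries, with a log2 fold change of -0.23 ± 0.0736 that passed only with the block (edgeR adjusted p = 0.195, and 0.000456 with the block). In siMYBL2 the log2 fold change was -0.11 ± 0.0827 (edgeR adjusted p = 0.388). In siBoth, FZR1 was 38.3, 51.3 and 40.1 CPM, against 43.8, 50.4 and 46.9, and replicate 2 was as high as its control (-0.12 ± 0.123, edgeR adjusted p = 0.550). In FDI6 it was 32.1, 45.04 and 41.5 CPM, against 56.5, 55.8 and 46.1, with no overlap. There it fell by 0.42 ± 0.124 on the log2 scale (edgeR adjusted p = 0.0191). Without control_FDI6 replicate 1 or 2 the log2 fold change was -0.37 and -0.38 and no longer passed (adjusted p = 0.0879 and 0.0820), and after the GC correction the fall was 0.23 (adjusted p = 0.0247).

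The level of CDC20 relative to FZR1 was taken within each library, as the log2 ratio of their counts. It was 1.46 ± 0.248 in siControl and 0.996 ± 0.241 in siMYBL2 (SD, n = 4 each), lower in 4 of 4 pairs, with a difference of -0.47 (two-sided exact permutation p = 0.0571, adjusted 0.200 over the 8 ratio comparisons). In siFOXM1 the ratio was 1.54 ± 0.230, a difference of 0.08 (exact permutation p = 0.714), and the sign turned without siFOXM1 replicate 3 (-0.03) or siControl replicate 4 (-0.04). In siBoth it was 1.25 ± 0.173, against 1.70 ± 0.0895 in its control, lower in 3 of 3 pairs. In FDI6 it was 2.53 ± 0.166, against 2.21 ± 0.172, so that CDC20 was on average higher relative to FZR1 there. The lowest FDI6 library (replicate 3, 2.405) was level with the highest control_FDI6 library (replicate 3, 2.404). Each of these last differences, -0.44 and 0.32, had an exact permutation p of 0.100, the smallest that 3 libraries against 3 allow.

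**Figure D4:**
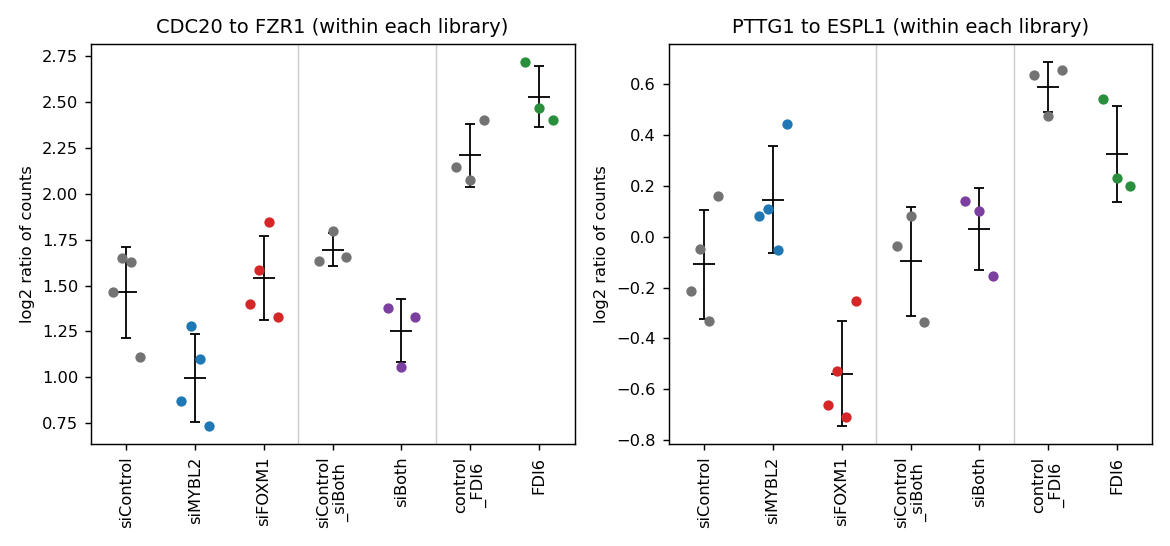
Log2 ratio of counts within each library for CDC20 to FZR1 (left) and PTTG1 to ESPL1 (right), by group, with black bars for the mean ± SD. CDC20 relative to FZR1 averaged 0.996 in siMYBL2 against 1.46 in siControl, and PTTG1 relative to ESPL1 averaged -0.54 in siFOXM1 against -0.11.

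UBE2C, the ubiquitin-conjugating enzyme that starts chains on APC/C substrates, had the largest fall of the 10 genes in siMYBL2 and siBoth. It stood at 72.2, 71.5, 76.4 and 64.8 CPM in siControl and at 29.2, 37.4, 31.2 and 23.6 in siMYBL2. The siMYBL2 libraries were at 42.2% of the siControl level (ratio of geometric means), with no overlap. UBE2C fell by 1.23 ± 0.129 on the log2 scale (edgeR adjusted p = 0.000520). In siBoth it was 31.2, 35.5 and 38.3 CPM, against 76.0, 89.3 and 84.4, or 42.0% of the control level. There it fell by 1.25 ± 0.105 (edgeR adjusted p = 0.000515).

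In siFOXM1, UBE2C was 62.3, 64.9, 71.5 and 59.8 CPM and its range overlapped that of siControl. The log2 fold change of -0.15 ± 0.0751 passed only with the block (edgeR adjusted p = 0.474, and 0.00506 with the block), and it was lower in 4 of 4 pairs. In FDI6, UBE2C was 106.9, 108.7 and 100.5 CPM, against 154.2, 143.1 and 148.3, with no overlap. It fell by 0.50 ± 0.0654 (edgeR adjusted p = 0.000150), and by 0.29 after the GC correction (adjusted p = 0.000548). Processed copies of UBE2C are annotated, and the most counted of them, UBE2CP5, held 0.604% as many counts as UBE2C.

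UBE2S, which extends ubiquitin chains, changed less than UBE2C in siMYBL2 and siBoth. Its siControl libraries stood at 294.9, 320.7, 328.7 and 257.7 CPM and its siMYBL2 libraries at 212.0, 244.8, 242.8 and 205.8, with no overlap. UBE2S fell by 0.41 ± 0.0979 on the log2 scale in siMYBL2 (edgeR adjusted p = 0.0207, and 2.16e-06 with the block). Without the block, the adjusted p was between 0.0505 and 0.0677 when siMYBL2 replicate 1 or siControl replicate 1, 2 or 3 was left out. In siFOXM1 it was 231.4, 271.1, 269.7 and 230.0 CPM, with a log2 fold change of -0.27 ± 0.0961 that passed only with the block (edgeR adjusted p = 0.264, and 3.68e-07 with the block). The siBoth libraries stood at 114.1, 162.5 and 116.2 CPM, against 142.3, 177.6 and 137.0, and replicate 2 was the highest of each group. There the log2 fold change was -0.22 ± 0.159 (edgeR adjusted p = 0.398, and 0.0172 with the block). With FDI-6 it was 352.8, 429.1 and 436.4 CPM, against 634.7, 585.5 and 558.6. There UBE2S fell by 0.55 ± 0.0844 (edgeR adjusted p = 0.000461), the largest fall of the 10 genes in that comparison. After the GC correction it fell by 0.392 (adjusted p = 0.000155), close to the 0.388 of PTTG1.

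FBXO5, the S and G2 inhibitor of the APC/C, stood at 28.2, 28.6, 28.8 and 21.4 CPM in siControl and at 14.4, 17.6, 18.7 and 10.2 in siMYBL2. Replicate 4 was the lowest of both groups, and the groups did not overlap. FBXO5 fell by 0.81 ± 0.187 on the log2 scale (edgeR adjusted p = 0.0175, and 2.16e-06 with the block). In the fit without the block, the adjusted p was 0.0569 without siMYBL2 replicate 1 and 0.0511 without siControl replicate 1. In siBoth it was 9.98, 11.2 and 13.5 CPM, against 18.5, 21.4 and 17.8. There it fell by 0.73 ± 0.146 (edgeR adjusted p = 0.0173, and 0.000178 with the block). Without the block, that call was lost when siBoth replicate 1 or 2 or siControl_siBoth replicate 2 was left out (adjusted p between 0.0501 and 0.0679).

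In siFOXM1, FBXO5 was 27.3, 30.0, 29.4 and 25.4 CPM, lower than siControl in 1 of 4 pairs, with a log2 fold change of 0.06 ± 0.109 (edgeR adjusted p = 0.902). The FDI6 libraries were at 39.1, 35.0 and 29.2 CPM, against 34.4, 31.5 and 36.7, with FDI6 replicate 1 the highest and replicate 3 the lowest of all 6. The log2 fold change was 0.01 ± 0.109 (edgeR adjusted p = 0.964).

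PTTG1, which encodes securin, was lower in each of the 4 comparisons. It stood at 58.0, 62.8, 66.3 and 66.7 CPM in siControl, at 42.1, 46.3, 53.2 and 42.7 in siMYBL2 and at 40.3, 43.0, 48.5 and 45.6 in siFOXM1. Neither treated group overlapped the controls. PTTG1 fell by 0.46 ± 0.0892 on the log2 scale in siMYBL2 (edgeR adjusted p = 0.00862) and by 0.52 ± 0.0739 in siFOXM1 (edgeR adjusted p = 0.0111). Without siFOXM1 replicate 1 the latter adjusted p was 0.0504, and with the block and all libraries it was 1.42e-10. In siBoth, PTTG1 was 47.5, 54.6 and 45.7 CPM, against 82.7, 93.9 and 70.8, and it fell by 0.74 ± 0.121 (edgeR adjusted p = 0.00821). In FDI6 it was 105.6, 92.4 and 89.8 CPM, against 138.4, 128.0 and 141.2. It fell by 0.50 ± 0.0770 (edgeR adjusted p = 0.000439), and by 0.388 after the GC correction (adjusted p = 4.75e-05). The near-identical copies PTTG2 and PTTG3P had at most 1 count in any library.

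ESPL1, which encodes separase, the protease held back by securin, was lower in siMYBL2, siBoth and FDI6. It stood at 67.3, 65.0, 83.4 and 59.7 CPM in siControl and at 39.8, 42.9, 55.1 and 31.5 in siMYBL2, with replicate 3 the highest and replicate 4 the lowest in both groups and no overlap. ESPL1 fell by 0.70 ± 0.169 on the log2 scale (edgeR adjusted p = 0.0208). With the block and all libraries the edgeR adjusted p was 5.71e-07. Without the block, it was between 0.0504 and 0.0652 when siMYBL2 replicate 1 or siControl replicate 1 or 3 was left out. In the combined knockdown it was 43.1, 50.9 and 50.9 CPM, against 84.8, 88.7 and 89.3, and it fell by 0.86 ± 0.0903 (edgeR adjusted p = 0.00123).

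In siFOXM1, ESPL1 was 63.8, 62.0, 79.3 and 54.3 CPM, lower than siControl in 4 of 4 pairs, with a log2 fold change of -0.09 ± 0.134 (edgeR adjusted p = 0.867, and 0.0674 with the block). In FDI6 it was 72.6, 78.7 and 78.3 CPM, against 89.2, 92.1 and 89.8, with no overlap, and it fell by 0.24 ± 0.0691 (edgeR adjusted p = 0.0161). The adjusted p was between 0.0510 and 0.0722 without any 1 of the 3 control_FDI6 libraries.

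Securin relative to separase was taken in the same way as the activators. The log2 ratio of PTTG1 to ESPL1 counts was -0.11 ± 0.213 in siControl and -0.54 ± 0.205 in siFOXM1 (SD, n = 4 each). It was lower in 4 of 4 pairs, with a difference of -0.43 (two-sided exact permutation p = 0.0571, adjusted 0.200). The 4 pair differences had an SD of 0.0440, and the exact paired permutation p of 0.125 is the smallest that 4 pairs allow. In siMYBL2 the ratio was 0.15 ± 0.210, higher in 4 of 4 pairs (exact permutation p = 0.200). In siBoth it was 0.03 ± 0.161, against -0.10 ± 0.215 (exact permutation p = 0.5), and in FDI6 0.32 ± 0.190, against 0.59 ± 0.0978 (exact permutation p = 0.200). None of the 8 ratio comparisons passed after adjustment.

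The core subunits moved little in the knockdowns. CDC27 ranged from 167.5 to 181.5 CPM in siMYBL2 and from 175.3 to 200.5 in siFOXM1, against 175.3 to 197.3 in siControl. Its log2 fold change was -0.10 ± 0.0664 in siMYBL2 (edgeR adjusted p = 0.312, and 0.0358 with the block) and -0.01 ± 0.0664 in siFOXM1 (adjusted p = 0.973). In siBoth it was 163.9, 131.4 and 167.4 CPM, against 185.2, 195.2 and 189.9, with no overlap and replicate 2 the lowest. The log2 fold change of -0.30 ± 0.105 passed only with the block (edgeR adjusted p = 0.0982, and 0.00721 with the block), and it was -0.09 with the block and the GC correction together (adjusted p = 0.237).

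CDC27 was the gene of the set that rose in FDI6. It was 217.0, 176.4 and 159.1 CPM, against 149.0, 137.7 and 148.7 in the controls, with no overlap and a wide spread among the treated libraries. Its log2 fold change was 0.34 ± 0.0974 (edgeR adjusted p = 0.0164). The direction turned after a correction for GC content and length, to -0.07 (edgeR adjusted p = 0.375). Without control_FDI6 replicate 1 it was 0.35 (adjusted p = 0.0544) and without replicate 2 it was 0.30 (0.0823).

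CDC16 was changed in none of the 4 comparisons. It ranged from 57.2 to 65.9 CPM in siMYBL2 and from 60.3 to 66.7 in siFOXM1, against 59.0 to 70.0 in siControl. In siBoth it ranged from 63.0 to 65.9, below the 68.7 to 74.4 of its control, with a log2 fold change of -0.16 ± 0.0745 (edgeR adjusted p = 0.205, and 0.110 with the block). In FDI6 it ranged from 72.9 to 85.4, against 73.6 to 78.0 (adjusted p = 0.807).

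CDC23 was between 69.7 and 74.5 CPM in siControl. In siMYBL2 replicate 3 stood at 73.1 and the others between 63.7 and 65.1, with a log2 fold change of -0.12 ± 0.0647 (edgeR adjusted p = 0.224, and 0.0447 with the block). In siFOXM1 it was 75.8, 74.0, 85.9 and 85.5 CPM, higher than siControl in 4 of 4 pairs, with a log2 fold change of 0.14 ± 0.0639 (edgeR adjusted p = 0.400, and 0.00816 with the block). In siBoth (76.0 to 80.3 against 78.4 to 84.7) and FDI6 (63.9 to 76.0 against 65.6 to 72.3) the adjusted p was 0.656 and 0.985. Of the exon bases of CDC23, 1.6% overlap KIF20A on the opposite strand, and for FZR1, CDC27, CDC16 and FBXO5 between 1.1% and 4.1% overlap another gene in this way. Pairs that could belong to more than 1 gene are not counted. The strand setting of the counting is not given in the sources used here, so whether pairs from those stretches were counted cannot be told.

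The effects of the knockdowns were then compared directly. Between siMYBL2 and siFOXM1 libraries, 4 of the 10 genes were lower in siMYBL2, where 11.8% of all genes tested were lower, and none was higher, against 11.4%. UBE2C was at -1.08 ± 0.131 on the log2 scale (edgeR adjusted p = 0.000585), FBXO5 at -0.88 ± 0.172 (0.00658), ESPL1 at -0.61 ± 0.173 (0.0314) and CDC23 at -0.27 ± 0.0761 (0.0316). The first 3 also passed the 1.5-fold limit, against 4.34% of all genes. With the block, the edgeR adjusted p was 9.94e-07 for ESPL1 and 0.000314 for CDC23. Without it, ESPL1 and CDC23 each missed the threshold on adjusted p when any of 5 libraries was left out (from 0.0578 to 0.0846 and from 0.0629 to 0.0926). For ESPL1 these were siMYBL2 replicates 1 and 2 and siFOXM1 replicates 1, 2 and 3, and for CDC23 siMYBL2 replicates 1, 2 and 4 and siFOXM1 replicates 3 and 4. CDC23 also missed the threshold under upper-quartile scaling (0.0631) and without the filter on low counts (0.0661). CDC20 was at -0.42 ± 0.173 (edgeR adjusted p = 0.112, and 1.02e-05 with the block) and UBE2S at -0.14 ± 0.0905 (0.291, and 0.00388 with the block). PTTG1 differed by 0.06 ± 0.0939 between the knockdowns (adjusted p = 0.698).

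Whether the combined knockdown differed from the knockdown of MYBL2 was tested as the siBoth effect minus the siMYBL2 effect, each against its own control. None of the 10 genes passed in edgeR, where 0.176% of all genes were lower and 0 higher, with 0 at an unadjusted p under 0.05 and 0 in DESeq2. With the block, where 4.79% of all genes were lower and 2.26% higher, none passed either, with 3 at an unadjusted p under 0.05. UBE2C differed by -0.03 ± 0.181 and CDC20 by -0.00 ± 0.253 on the log2 scale, and the widest estimate was that of PTTG1, at -0.28 ± 0.153 (edgeR adjusted p = 0.722, and 0.0737 with the block). The experiments had separate controls, and the standard errors of the 10 differences ran from 0.0931 to 0.263.

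The FDI6 effect minus the siFOXM1 effect was compared in the same way. UBE2C was the 1 gene that differed, at -0.35 ± 0.103 on the log2 scale (edgeR adjusted p = 0.0245), where 8.64% of all genes were lower. It was under 1.5-fold, and it no longer passed without FDI6 replicate 3 (-0.31, adjusted p = 0.0597) or control_FDI6 replicate 1 (-0.33, 0.0706), without the filter on low counts (-0.33, 0.0985) and after the GC correction (-0.13, adjusted p = 0.352). With the block, where 18.3% of all genes were lower and 20.0% higher, UBE2S was also lower (-0.28 ± 0.142 without the block, adjusted p = 0.173, and 0.0247 with it) and CDC27 higher (0.35 ± 0.129, adjusted p = 0.0670, and 0.00796 with the block). With the block and the GC correction neither passed, with UBE2S at -0.10 (adjusted p = 0.305) and CDC27 at -0.12 (0.115). PTTG1 differed by 0.02 ± 0.113 (adjusted p = 0.942).

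Other genes of the pathway were described from lists chosen by role, with earlier results of these data known. The shares of all genes beside them are therefore a description and not an independent test. Of 11 further APC/C subunits, 2 were lower in siMYBL2 (9.53% of all genes tested) and in siBoth (7.77%) and none was higher. With the block, 4 were lower and 2 higher in siMYBL2 (23.1% and 23.6% of all genes), and 3 were lower in siBoth (18.5%). ANAPC13, a small subunit that stabilizes the complex, fell by 1.14 ± 0.164 on the log2 scale in siMYBL2 (edgeR adjusted p = 0.00228) and by 0.98 ± 0.117 in siBoth (0.00217). ANAPC1, the scaffold subunit, fell by 0.35 ± 0.0827 (0.0185) and by 0.45 ± 0.0718 (0.00770). The highest value in these comparisons was that of ANAPC10 (0.49 ± 0.174 and 0.31 ± 0.194, adjusted p = 0.0835 and 0.322). The list's median was -0.01 in siMYBL2 and 0.07 in siBoth. In siFOXM1 none of the 11 passed in edgeR (1 with the block), with values from -0.11 (ANAPC5) to 0.13 (ANAPC13). In FDI6, 4 were lower (17.9% of all genes) and 2 higher (21.0%), from ANAPC15 (-0.61 ± 0.217, adjusted p = 0.0431) to ANAPC1 (0.38 ± 0.0788, adjusted p = 0.00311). The values of this and the next lists are without the GC correction, under which CDC27 turned sign in FDI6. Its effect on the lists was not tested.

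The next list held 8 genes that form or regulate the spindle assembly checkpoint, which holds CDC20 back. It mixes both kinds, with TRIP13 and MAD2L1BP among the regulators. Of the 8, 4 were lower in siMYBL2 (9.53% of all genes tested) and 4 in siBoth (7.77%), with medians of -0.30 and -0.33. With the block, 6 were lower in siMYBL2 (23.1%), and 5 were lower and 1 higher in siBoth (18.5% and 16.3%). In siMYBL2 these were TRIP13 (-0.51 ± 0.153, edgeR adjusted p = 0.0484), TTK (-0.39 ± 0.110, 0.0395), BUB1B (-0.37 ± 0.0883, 0.0194) and MAD2L1 (-0.33 ± 0.0935, 0.0396). In siBoth they were TTK (-0.60 ± 0.111, 0.0128), MAD2L1 (-0.49 ± 0.101, 0.0194), BUB1B (-0.35 ± 0.0852, 0.0346) and BUB1 (-0.33 ± 0.0902, 0.0494). The highest value in both was that of MAD1L1 (0.12 and 0.30, adjusted p = 0.324 and 0.131). None of the 8 passed in siFOXM1, with or without the block, with values from -0.11 (MAD2L1) to 0.11 (MAD1L1), or in FDI6, with values from -0.21 (MAD1L1) to 0.20 (TTK).

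Transcripts of 21 genes for other proteins that the APC/C degrades, such as cyclins and mitotic kinases, were also described. Of these transcripts, 11 were lower in siMYBL2 (8 called), 3 in siFOXM1 (3 called), 15 in siBoth (12 called) and 10 in FDI6 (2 called). None was higher without the block. Over all genes tested 9.53%, 1.09%, 7.77% and 17.9% were lower, and 3.52%, 0.591%, 3.64% and 5.77% were called lower. With the block, 19 were lower in siMYBL2 (23.1% of all genes), 12 were lower and 2 higher in siFOXM1 (14.0% and 12.3%), and 18 were lower in siBoth (18.5%). The medians were -0.50, -0.14, -0.74 and -0.19. In siMYBL2 the lowest was the spindle protein gene DLGAP5 (-1.07 ± 0.0968, edgeR adjusted p = 0.000306) and the highest CDC25A (0.04, adjusted p = 0.927). In siFOXM1 the 3 were the kinase gene NEK2 (-0.92 ± 0.0756, adjusted p = 0.000572) and the cyclin genes CCNB1 (-0.68 ± 0.0859, 0.00659) and CCNA2 (-0.61 ± 0.104, 0.0262), and the highest was SKP2 (0.32 ± 0.118, 0.282). In siBoth the values ran from CCNA2 (-1.46 ± 0.0992, adjusted p = 0.000257) to GMNN (-0.05, 0.778), and in FDI6 from TK1 (-0.73 ± 0.0681, 1.28e-05) to ANLN (0.21, 0.0950).

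**Figure D5:**
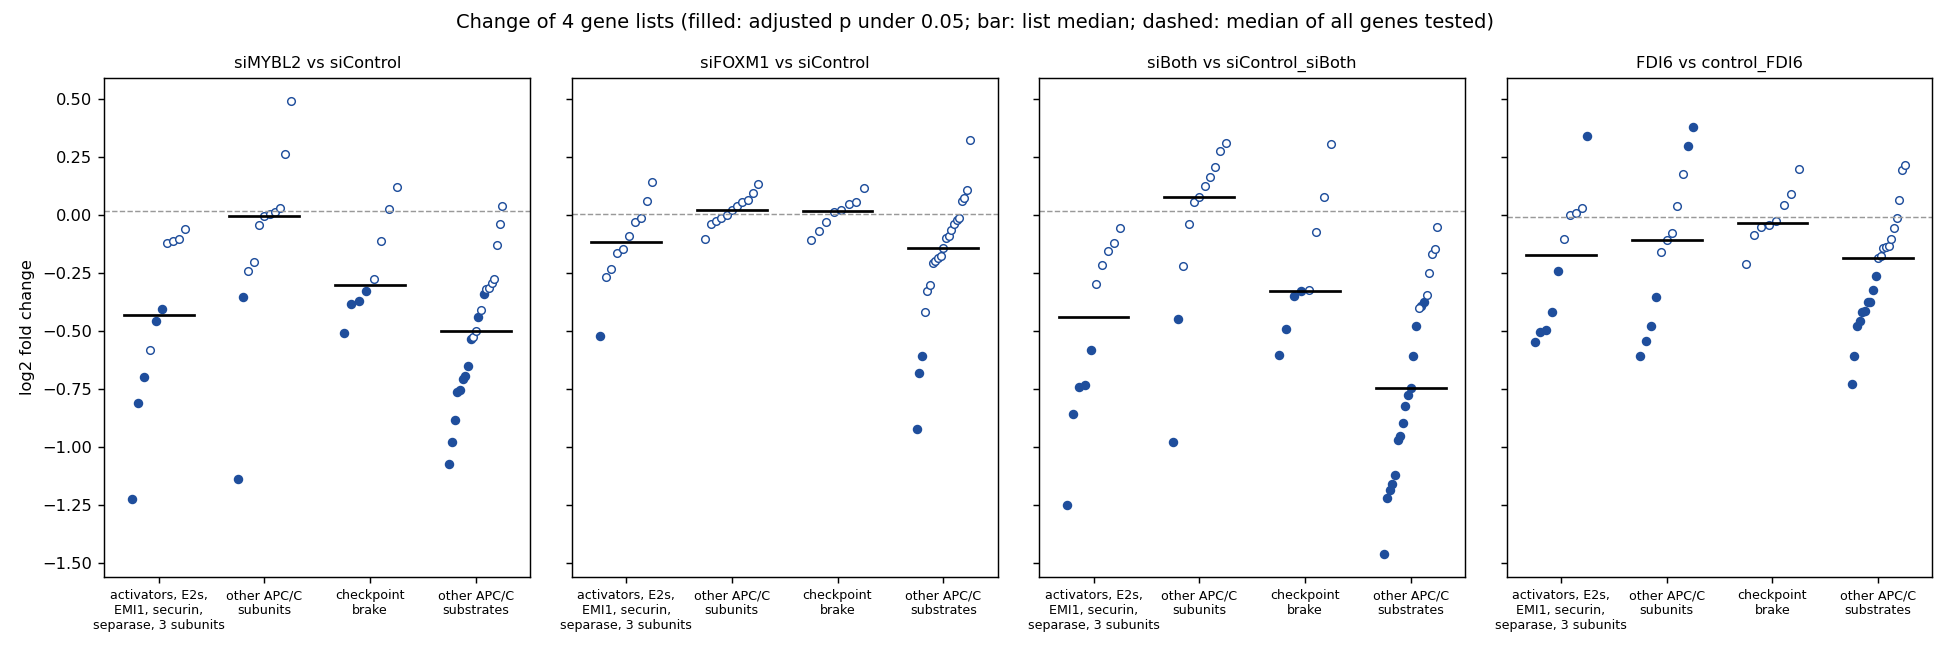
Log2 fold change of each gene of 4 lists in 4 comparisons, with filled points for an adjusted p under 0.05 in edgeR, black bars for the median of the list and a dashed line for the median of all genes tested. The genes of the substrates had medians of -0.50 in siMYBL2 and -0.74 in siBoth, and those of the further APC/C subunits -0.01 and 0.07, with ANAPC13 as their lowest point in both.

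The genes whose log2 fold changes in the 4 comparisons lay closest to those of each gene were found among the 11364 genes whose counts averaged 100 or more per library, by Euclidean distance on the log2 scale. The profile of CDC20 was closest to NCAPH, a condensin subunit gene (distance 0.067), SDHAF4 (0.073) and SMN1 (0.095), which has a near-identical copy, so that its counts are uncertain. ESPL1 was closest to SPC25, a kinetochore gene (0.105), to ENSG00000260822.1 (0.121) and to the mitotic kinase gene PLK1 (0.159). UBE2C had its nearest genes farther away, PCBP4 (0.242), GLRX5 (0.346) and LRFN1 (0.369), as did PTTG1 with KPNA2 (0.268), FILIP1 (0.279) and OIP5 (0.285). The nearest genes of FBXO5 included ZDHHC5 (0.136) and RRP1B (0.154), and UBE2S was closest to DCTPP1 (0.109), MPST (0.126) and FOXA2 (0.130). For FZR1 (PRELID1, PPP1R14B and TESC), CDC27 (ADNP, SIRT1 and DDX3X), CDC16 (METAP2, CCT6A and RXYLT1) and CDC23 (SMIM19, CSNK2A2 and CNOT8) the nearest genes lay at 0.033 to 0.085. siMYBL2 and siFOXM1 share controls, so the distances describe these 4 values only.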

How the data were processed

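RNA-seq counts of 24 A549 libraries were analysed. The libraries were polyA-selected and sequenced as paired-end reads. According to the study's methods, the authors trimmed the reads with Trim Galore, aligned them to hg38 with STAR and used HTSeq with GENCODE V29 for counting. The deposited files hold raw counts of read pairs for each gene. Pairs that could belong to more than 1 gene or place are not counted, and the strand setting is not given in the sources used here. HTSeq's own totals were left out of library sizes. Identifiers were matched to GENCODE V44 for names, positions and lengths, and 58207 of 58721 matched.

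The groups and replicate numbers came from the labels. The 10 genes and the lists were chosen with earlier results of these data known. The groups of each comparison were fitted by themselves in edgeR 4.0.16 (R 4.3.3, TMM, filterByExpr, no block, quasi-likelihood test, Benjamini-Hochberg adjustment over all genes tested). The standard error is the log2 fold change divided by the square root of F. The scripts were tested on simulated data. Alternatives were DESeq2 1.42.0, scaling by RLE or by the upper quartile, all genes unfiltered, at least 10 counts in every library, a replicate block, a correction for GC content and length with the block, and leaving out each library. The GC correction without the block was added after the data were seen. Deviations from the group mean, taken for libraries of the same number, correlated with r from 0.524 to 0.906 in the knockdowns, over genes, and the numbers come from the labels. No libraries were duplicates (chi-square per gene at least 3.855). The 24 libraries held 16487394 to 30140550 counted pairs. Ratios were tested by exact permutation over libraries. The text names the 10 genes, MYBL2 and FOXM1, the lowest and highest gene of each list with those that changed where they were at most 5, and the 3 nearest genes by profile, of which 1 is not reported here. The S-phase and G2/M lists are those of Seurat 5.3.0, without the 10 genes. Promoter letters were matched on both strands in RefSeq windows.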

Additional observations from a re-analysis of the deposited data

Results flagged for a closer look

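In siControl, FBXO5 was 21.38 CPM in replicate 4 and 28.2 to 28.8 in the other 3 libraries, and in siMYBL2, CDC23 was 73.12 CPM in replicate 3 and 63.7 to 65.1 in the others. Each of these libraries stood far from the rest of its group by Dixon's test, which chance alone meets in about 1 in 20 groups, and 30 groups of 4 libraries were tested.

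The effect differed between siMYBL2 and siFOXM1 by edgeR's test of the difference for UBE2C (-1.08 on the log2 scale), FBXO5 (-0.88), ESPL1 (-0.61) and CDC23 (-0.27), all lower in siMYBL2. The FDI6 effect was lower than the siFOXM1 effect for UBE2C (-0.35).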

How the results depend on the processing

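The data are limited to 3 or 4 libraries a group and 1 cell line, and the FDI6 libraries were shallower than their controls, with no alternative at equal depth. Among 1200 values for the 10 genes under the alternatives and left-out libraries, 1056 kept their direction and side of the threshold, 69 turned sign, 38 came to pass the threshold and 37 no longer passed it. Where a result changed, the cause was not tested, except that leaving out a library also leaves fewer samples.

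With the replicate block, the genes called over the whole table were 1991 in siMYBL2 (1269 without), 401 in siFOXM1 (106), 1849 in siBoth (1019) and 271 for the siBoth effect minus the siMYBL2 effect (27). With the block and the GC and length correction they were 1992, 390, 1587 and 165, and 1240 in FDI6 (2098 without). With the block, 8 of the 10 genes of the report were changed in siMYBL2, 6 in siFOXM1 and 3 for the FDI6 effect minus the siFOXM1 effect. With the GC correction added these were 7 in siFOXM1, 7 in siMYBL2 against siFOXM1 and 3 for the FDI6 difference. Passing only with the block and the GC correction together were FZR1 in siMYBL2 (edgeR adjusted p = 0.0389) and siBoth (0.0106), ESPL1 in siFOXM1 (0.0119), CDC27 in siMYBL2 against siFOXM1 (0.0153), and CDC20 (0.00130) and FBXO5 (0.0301) for the FDI6 difference, where CDC23 passed with (0.00281) and without (0.0488) the block. CDC27 and CDC23 in siMYBL2 and CDC27 in siBoth passed with the block but not with the GC correction added. CDC27 in the FDI6 difference also passed without the filter on low counts (0.0458). In FDI6 the numbers did not pair the libraries (r = -0.116, 0.161 and -0.288), and the block moved none of the 10 genes across the threshold.

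The GC correction without the block called 1322 genes in FDI6, 15 for the siBoth difference and 1025 for the FDI6 difference (1959 without). DESeq2 called 64 for the siBoth difference, and without the filter on low counts 1545 were called in siBoth. Under upper-quartile scaling 1 of the 10 genes was called in FDI6, and the calls split into 417 lower and 610 higher in siBoth, against 576 and 443, and 51.4% of calls were higher for the FDI6 difference, against 63.7%.

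Among the log2 fold changes that turned sign were those of CDC27 in FDI6 (0.34) and in the FDI6 difference (0.35). With the block and GC correction, and with the GC correction alone, they became 0.0396 and 0.0393 for CDC27 in siFOXM1, 0.0209 and 0.02 for CDC23 in siBoth, -0.1227 and -0.1213 for CDC27 in the FDI6 difference, and in FDI6 0.1569 and 0.1587 for CDC20, -0.1498 and -0.1484 for FBXO5, -0.0686 and -0.0673 for CDC27, and -0.0136 and -0.0132 for CDC16. Under upper-quartile scaling they became 0.0181 for CDC23 in siBoth, -0.0347 for FBXO5 and -0.0146 for CDC16 in FDI6, 0.011 for CDC16 in siMYBL2 against siFOXM1, 0.0161 for CDC20 and 0.0059 for FZR1 in the siBoth difference, and -0.0436 for PTTG1 and -0.001 for CDC16 in the FDI6 difference. CDC20 in the siBoth difference was 0.008 with at least 10 counts in every library and 0.0053 with the block.

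The fits with 1 library left out had no block. In siMYBL2, they gave 2 to 6 of the 10 genes changed and 1 to 4 called. These counts were lowest without siMYBL2 replicate 1 or siControl replicate 1. In siFOXM1, 56 to 115 genes were called over the whole table, lowest without siFOXM1 replicate 1, and 0 to 1 of the 10 were changed. In siBoth 587 to 1097 genes were called, lowest without siBoth replicate 2. In FDI6, 3 to 6 of the 10 were changed, lowest without control_FDI6 replicate 1 or 2, and 0 to 1 called. In siMYBL2 against siFOXM1, 2 to 4 were changed, lowest without siMYBL2 replicate 1 or 2 or siFOXM1 replicate 3. For the siBoth difference 7 to 28 genes were called, lowest without siControl replicate 1, and for the FDI6 difference 0 to 2 of the 10 were changed, none without control_FDI6 replicate 1.

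Left-out libraries also turned the sign of some differences. In siFOXM1, FBXO5 ranged from -0.0342 to 0.1061, ESPL1 from -0.2058 to 0.0175, CDC27 from -0.0495 to 0.0181, CDC16 from -0.0782 to 0.0027 and the CDC20 to FZR1 ratio from -0.0407 to 0.1466. In FDI6, FBXO5 ranged from -0.089 to 0.11, CDC16 from -0.0441 to 0.0652 and CDC23 from -0.0715 to 0.047. In siMYBL2 against siFOXM1, PTTG1 ranged from -0.0214 to 0.1054 and CDC16 from -0.0698 to 0.0045. In the siBoth difference, CDC20 ranged from -0.1206 to 0.1319, FZR1 from -0.1454 to 0.0535, UBE2C from -0.1284 to 0.0949 and FBXO5 from -0.0721 to 0.1935. In the FDI6 difference, CDC20 ranged from -0.039 to 0.1918, FBXO5 from -0.1533 to 0.058, PTTG1 from -0.057 to 0.0676 and CDC16 from -0.0161 to 0.1055.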
